A study of Homo sapiens with 12 samples.

Results

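The circadian clock is read here through 10 genes: BMAL1 and CLOCK, PER1, PER2 and PER3, NR1D1 and NR1D2, BHLHE40 and BHLHE41, and DBP. They were chosen by name from the gene symbols of the count table, with earlier results of these data known, and are 10 of its 45372 genes. All 10 had counts, and all 10 were among the 12878 genes with enough counts to be tested. The cells were HaCaT, an established line of spontaneously immortalised human skin keratinocytes, labelled wild-type in every group. The irradiated groups blue_3, blue_14 and blue_42 had received 3, 14 or 42 exposures to 408 nm light from an LED, each of 50 J per cm2 at 4.6 mW per cm2. Dark groups of the same irradiation numbers, dark_3, dark_14 and dark_42, served as their controls. Each of the 6 groups had 2 libraries, lettered a and b, so 12 in all. Sessions took place 3 times weekly for at most 14 weeks, in buffered saline, with passaging between them, per the labels' protocols, and the submitters picked a dose that killed a large share of the cells. Whether dark plates were also held in saline is not stated in those sources. Neither is the hour of harvest, nor the time since the last exposure or medium change, nor any synchronisation of the cells, so the levels below are single readings at an unknown phase of any rhythm.

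The clock is a loop of transcription and repression. CLOCK and BMAL1 bind together to E-boxes and switch on the PER genes, the genes of the nuclear receptors REV-ERB alpha and beta (NR1D1 and NR1D2), the DEC genes (BHLHE40 and BHLHE41) and DBP. PER proteins, with cryptochromes, repress CLOCK and BMAL1, the REV-ERBs repress BMAL1, and the DEC proteins compete for E-boxes, while DBP carries the rhythm to output genes through D-boxes. Keratinocytes hold such a clock, and in skin it times cell division and DNA repair.

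Library totals ran from 2073160 counts in blue_14 b to 8183941 in blue_42 b, and both other shallow libraries, dark_14 a and blue_14 a, held 3561392 and 3517401. The keratinocyte label was borne out by 9 markers, among them KRT5, KRT14 and TP63, which summed to between 4059 and 6640 CPM (counts scaled to a common library size) with none at 0 in any library. Levels are given as CPM for each library in the order a, b. Tests were edgeR quasi-likelihood tests over all 12 libraries, the call threshold was an adjusted p of 0.05 over all tested genes, and errors of log2 differences are model standard errors. Because these are bulk libraries, fewer cells of a type and less RNA per cell cannot be told apart.

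CLOCK was the most abundant of the 10, averaging 81.3 CPM over the 12 libraries, followed by BHLHE41 at 74.8 and PER2 at 36.0 CPM. NR1D2 averaged 15.8, BHLHE40 15.5 and NR1D1 11.5 CPM. Lowest were BMAL1 at 9.01, PER1 at 7.67, DBP at 5.99 and PER3 at 4.18 CPM. The library chemistry gives about 1 tag per transcript, so these levels need no scaling by length. PER3 rested on as few as 8 counts, in blue_14 b, while CLOCK had at least 155 counts in every library. Between the lowest and the highest group mean, CLOCK moved 1.16-fold and BHLHE40 moved 2.27-fold, the widest of the 10.

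**Figure D1:**
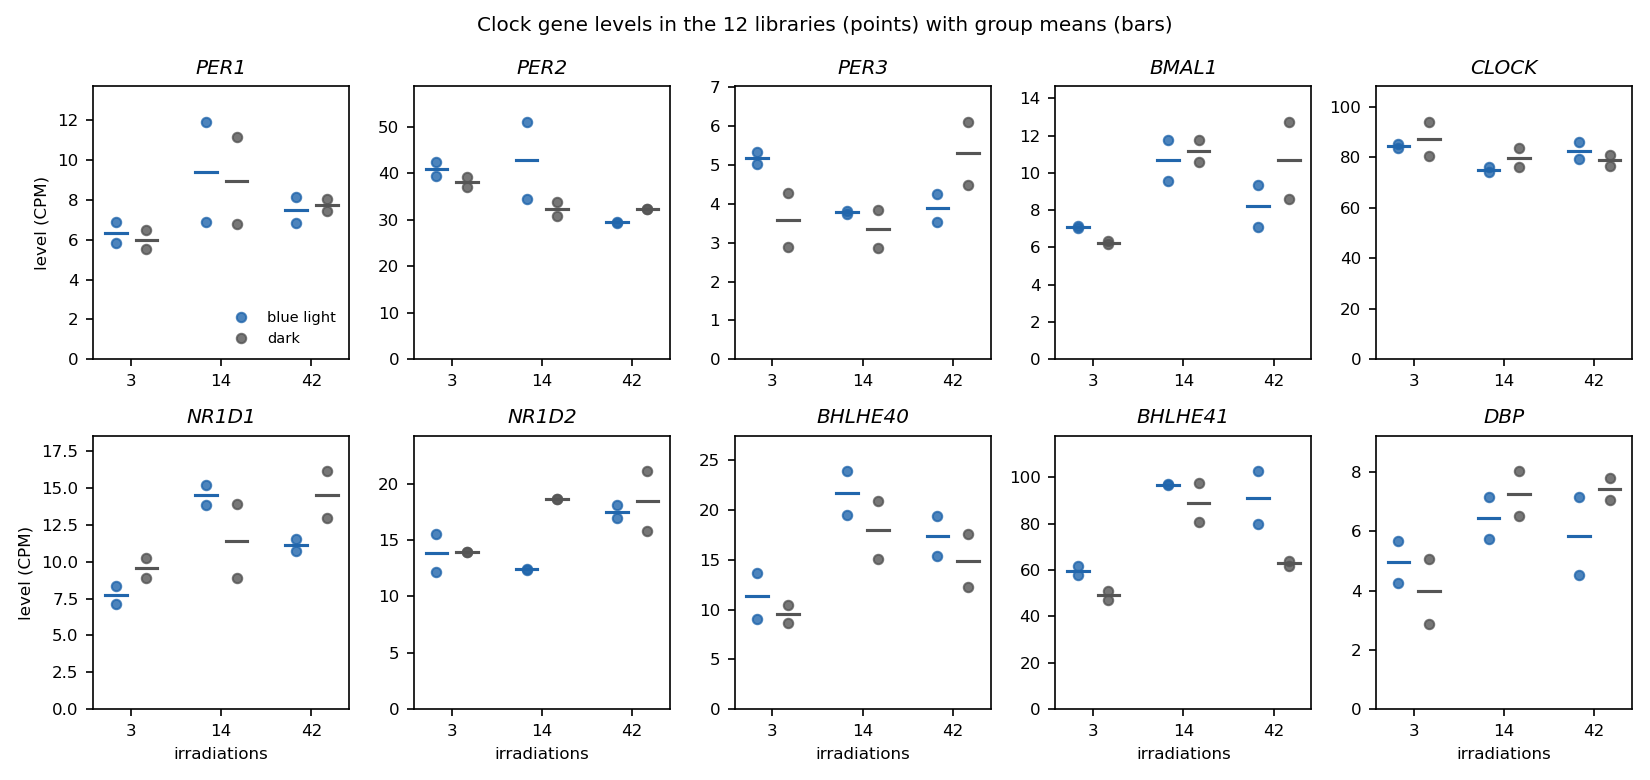
Level of each clock gene in CPM (linear axes from 0) against irradiation number, with irradiated libraries in blue left of dark libraries in grey; points are libraries and bars are the means of 2. BHLHE41 stood at 79.9 and 102 CPM in blue_42 against 61.7 and 64.0 CPM in dark_42, while CLOCK stayed between 74.0 and 94.0 CPM in all 12.

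The first question was whether repeated blue light shifted the clock genes. After 42 irradiations 1 of the 10 was called, BHLHE41, which was higher in irradiated cells, where 1.23% of the 12878 genes were called. After 3 irradiations none of the 10 was called, against 0.0155% of all genes, and 1 had an unadjusted p under 0.05. After 14 irradiations again none was called, and neither was any other gene, so the background was 0%. There 2 of the 10 and 758 of all genes had an unadjusted p under 0.05 by edgeR, and DESeq2 called 2 genes, neither of them a clock gene. The median log2 difference of the 10 was 0.14 after 3, 0.10 after 14 and -0.10 after 42 irradiations, beside 0.01, -0.01 and -0.00 for all genes.

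BHLHE41 encodes DEC2, a repressor that competes with CLOCK and BMAL1 at E-boxes and is itself induced by them. It lies on chromosome 12 (GRCh38, 26120026 to 26125127, minus strand, protein-coding). After 42 irradiations it measured 79.9 and 102 CPM in blue_42 (619 and 844 counts), against 61.7 and 64.0 CPM in dark_42 (482 and 492 counts). Both irradiated libraries lay above both dark ones, and the irradiated pair was the more spread. The log2 difference was 0.54 ± 0.13 (SE, n = 2 libraries each, 95% interval 0.27 to 0.80), a 1.45-fold higher level, with an edgeR adjusted p of 0.0387. Leaving out blue_42 b lowered it to 0.35 with an adjusted p of 0.452, and leaving out dark_3 a, dark_3 b, dark_42 a or dark_42 b gave 0.51 to 0.56 with adjusted p of 0.0800 to 0.164. With the replicate block the edgeR adjusted p was 0.050 and the gene was not called, nor was it with non-robust estimation (adjusted p 0.0526) or a fit on the compared libraries alone (adjusted p 0.105).

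At the earlier irradiation numbers the same gene was not called for light. After 3 irradiations BHLHE41 was at 61.6 and 57.6 CPM in blue_3 and at 51.1 and 47.2 CPM in dark_3, again without overlap (log2 0.28 ± 0.13, edgeR adjusted p 0.719). At 14 it was at 96.5 and 96.9 CPM in blue_14 and at 97.4 and 80.7 CPM in dark_14, where the groups overlapped (log2 0.13 ± 0.14, edgeR adjusted p 0.926). These differences in response were tested directly: the light effect at 42 exceeded that at 3 by 0.26 ± 0.19 (edgeR adjusted p 0.651) and that at 14 by 0.41 ± 0.19 (adjusted p 0.606). Neither was called, so the effect at 42 was not shown to differ from the earlier ones. No clock gene was called for any change in light effect: 0 of 10 for 14 against 3, with 0.0388% of all genes called, 0 of 10 for 42 against 3, with 0.435%, and 0 of 10 for 42 against 14, with 0.0544%. By DESeq2 none of the 10 was called in these 3 comparisons either, and 0, 1 and 3 of the 10 had an unadjusted edgeR p under 0.05.

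BHLHE40, the paralogue that encodes DEC1 (chromosome 3, 4979116 to 4985323, plus strand), was not called for light at any irradiation number. It measured 13.6 and 9.07 CPM in blue_3 against 10.5 and 8.64 CPM in dark_3, then 19.5 and 23.9 CPM in blue_14 against 20.9 and 15.1 CPM in dark_14. After 42 irradiations it measured 15.4 and 19.4 CPM in blue_42, against 12.3 and 17.6 CPM in dark_42. The groups overlapped each time, with log2 differences of 0.27 ± 0.25, 0.30 ± 0.25 and 0.22 ± 0.22 and edgeR adjusted p from 0.724 to 0.897. Intervals of these differences reached 0.79, 0.82 and 0.67 at their upper ends, so a rise of the size seen for BHLHE41 lay inside each of them.

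The DEC genes share a class of target sequence with the rest of the loop, and their own promoters are shown because they hold the full E-box. The windows run from 250 bases before to 50 bases after the start (RefSeq sequences, GRCh38.p14), written 5′ to 3′ on the gene's strand, with CACGTG in capitals. BHLHE41 spans chr12:26124988-26125287 on the minus strand and BHLHE40 spans chr3:4979187-4979486 on the plus strand.
BHLHE41: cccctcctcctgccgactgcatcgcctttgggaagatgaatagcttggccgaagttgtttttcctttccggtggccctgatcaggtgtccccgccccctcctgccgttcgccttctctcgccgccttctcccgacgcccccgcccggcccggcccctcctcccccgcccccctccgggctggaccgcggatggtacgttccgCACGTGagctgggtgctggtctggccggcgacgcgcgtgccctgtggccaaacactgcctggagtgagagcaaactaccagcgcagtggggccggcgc
BHLHE40: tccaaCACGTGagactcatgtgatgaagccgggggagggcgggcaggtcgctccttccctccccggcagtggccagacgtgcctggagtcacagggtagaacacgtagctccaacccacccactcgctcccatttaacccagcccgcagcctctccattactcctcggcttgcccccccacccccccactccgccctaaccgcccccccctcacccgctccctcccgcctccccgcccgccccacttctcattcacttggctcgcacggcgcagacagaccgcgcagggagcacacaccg
In BHLHE41 the E-box begins at position -48 from the start and in BHLHE40 at position -245. RefSeq gave 14 such windows for the 10 genes. The palindrome CACGTG was found in 4 of the 14, those of PER1, BHLHE40 and BHLHE41 and 1 window of NR1D2, which holds it at -155 and -105, against 7.26% of all 35116 windows of this length. CACGTT, searched with its reverse complement AACGTG, was found in windows of PER2, CLOCK and NR1D1, against 5.34% of all windows. The D-box spelling TTATGTAA lay in windows of PER3 and NR1D2 (0.886% of all) and TTATGCAA in that of PER1 (0.846%), each searched on both strands. TGACGTCA, the cyclic AMP response element, was in none of the 14, against 1.85% of all windows. These are matches of letters in a window, and no binding was measured.

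On the activating side, CLOCK, the larger partner of the heterodimer (chromosome 4, 55427903 to 55547138, minus strand), varied least between groups. It measured 83.6 and 85.0 CPM in blue_3 against 94.0 and 80.5 CPM in dark_3, then 76.1 and 74.0 CPM in blue_14 against 83.6 and 76.0 CPM in dark_14. After 42 irradiations it measured 85.9 and 79.2 CPM in blue_42 and 80.8 and 76.6 CPM in dark_42. All 3 pairs of groups overlapped, and the log2 differences were -0.05, -0.08 and 0.07 with errors of 0.11 to 0.13 (edgeR adjusted p 0.862 to 0.959). Their 95% intervals together spanned -0.34 to 0.30, and after 3 and 42 irradiations they were the narrowest of the 10 genes.

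BMAL1, the partner of CLOCK and the rhythmic member of the pair (chromosome 11, 13276652 to 13387266, plus strand), was low and not called for light. It measured 7.02 and 7.12 CPM in blue_3 against 6.18 and 6.34 CPM in dark_3 (log2 0.17 ± 0.25, edgeR adjusted p 0.916). In blue_14 it measured 11.8 and 9.55 CPM against 11.7 and 10.6 CPM in dark_14 (log2 -0.02 ± 0.26). In blue_42 it measured 7.10 and 9.35 CPM against 8.58 and 12.7 CPM in dark_42 (log2 -0.37 ± 0.22, edgeR adjusted p 0.505). The groups separated only after 3 irradiations, where both irradiated libraries were above, and the sign turned by 42. Its change in light effect from 3 to 42 was -0.54 ± 0.34 and was not called (edgeR adjusted p 0.580).

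Because BMAL1 is the classic target of REV-ERB and ROR receptors, its window with their half-site is shown, at chr11:13277540-13277839 on the plus strand (RefSeq, GRCh38.p14), with AGGTCA in capitals.
BMAL1: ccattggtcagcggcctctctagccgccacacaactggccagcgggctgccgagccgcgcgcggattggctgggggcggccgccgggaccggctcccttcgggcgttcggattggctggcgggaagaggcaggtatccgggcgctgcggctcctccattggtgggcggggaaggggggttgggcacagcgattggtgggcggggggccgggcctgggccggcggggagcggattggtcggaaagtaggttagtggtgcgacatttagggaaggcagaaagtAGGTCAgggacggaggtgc
The half-site begins 32 bases after the start. AGGTCA or its reverse complement TGACCT was found in 13.8% of all windows, and among the 10 genes in those of BMAL1 and PER1. A second BMAL1 window, 5′ of this one, held none of the motifs searched.

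Of the PER genes, whose products repress CLOCK and BMAL1, PER2 was the most abundant (chromosome 2, 238244038 to 238290102, minus strand). In blue_3 it measured 39.5 and 42.4 CPM, against 36.9 and 39.2 CPM in dark_3. At 14 it measured 34.5 and 51.1 CPM in blue_14 and 33.8 and 30.8 CPM in dark_14, and at 42 it measured 29.6 and 29.3 CPM in blue_42 and 32.3 and 32.4 CPM in dark_42. Both irradiated libraries were thus above both dark ones after 3 and 14 irradiations and below both after 42, though blue_14 b, at 51.1 CPM, is the shallowest library and rests on 107 counts. The log2 differences were 0.10 ± 0.14, 0.38 ± 0.16 and -0.14 ± 0.14, none called (edgeR adjusted p 0.908, 0.818 and 0.756). Nor was the change in light effect from 14 to 42 called, at -0.52 ± 0.22 (edgeR adjusted p 0.554).

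The PER2 promoter is shown for its CACGTT element, in capitals, a sequence known from mouse Per2 as a site of CLOCK and BMAL1. The window is chr2:238288561-238288860 on the minus strand (RefSeq, GRCh38.p14), and the element begins at position -197.
PER2: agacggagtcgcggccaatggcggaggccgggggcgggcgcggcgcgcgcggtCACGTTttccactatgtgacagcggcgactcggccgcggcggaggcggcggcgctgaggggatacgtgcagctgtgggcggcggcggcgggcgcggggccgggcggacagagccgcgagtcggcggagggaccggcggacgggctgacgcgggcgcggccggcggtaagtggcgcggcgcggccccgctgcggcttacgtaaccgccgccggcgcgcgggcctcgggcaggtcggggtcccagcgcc

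PER1, the member best known for immediate induction by stimuli (chromosome 17, 8140472 to 8156506, minus strand), showed overlapping groups throughout. It measured 6.89 and 5.83 CPM in blue_3 against 5.55 and 6.48 CPM in dark_3, then 6.84 and 8.13 CPM in blue_42 against 7.43 and 8.06 CPM in dark_42. At 14 the letters of each group lay far apart, at 6.90 and 11.9 CPM in blue_14 and 11.2 and 6.77 CPM in dark_14, so neither light was the higher. The log2 differences were 0.08 ± 0.28, 0.08 ± 0.31 and -0.05 ± 0.25 (edgeR adjusted p 0.965 to 0.984), with intervals reaching 0.73 at most.

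PER3, the least abundant of the 10 (chromosome 1, 7784320 to 7845177, plus strand), was at 5.03 and 5.34 CPM in blue_3 and at 4.28 and 2.88 CPM in dark_3. At 14 it was at 3.73 and 3.82 CPM in blue_14 and at 2.86 and 3.83 CPM in dark_14, and at 42 it was at 4.26 and 3.52 CPM in blue_42 and at 4.48 and 6.11 CPM in dark_42. Irradiated libraries were therefore above the dark ones at 3, overlapped at 14 and were below at 42. The log2 differences of 0.54 ± 0.30, 0.11 ± 0.40 and -0.44 ± 0.28 were not called (edgeR adjusted p 0.750, 0.985 and 0.534). Of all changes in light effect among the 10 genes, that of PER3 from 3 to 42 was the largest, at -0.98 ± 0.41 with an interval of -1.85 to -0.12 and an edgeR adjusted p of 0.370.

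The REV-ERB genes, whose products repress BMAL1, gave no call for light. NR1D1 (chromosome 17, 40092787 to 40100725, minus strand) measured 8.34 and 7.12 CPM in blue_3 against 8.88 and 10.2 CPM in dark_3, then 15.2 and 13.8 CPM in blue_14 against 8.88 and 13.9 CPM in dark_14. In blue_42 it measured 10.7 and 11.5 CPM, against 12.9 and 16.1 CPM in dark_42. It was below the dark libraries at 3 and 42 and overlapped them at 14, with log2 differences of -0.30 ± 0.23, 0.29 ± 0.24 and -0.38 ± 0.20 (edgeR adjusted p 0.835, 0.897 and 0.430). NR1D2 (chromosome 3, 23945260 to 23980618, plus strand) measured 12.2 and 15.5 CPM in blue_3 against 14.0 and 14.0 CPM in dark_3, then 16.9 and 18.1 CPM in blue_42 against 15.8 and 21.1 CPM in dark_42. Between these, at 14, it measured 12.4 and 12.4 CPM in blue_14 against 18.6 and 18.7 CPM in dark_14, a clean gap between close pairs that rested on 43 and 26 counts in the irradiated libraries. That log2 difference was -0.59 ± 0.22 (interval -1.05 to -0.13), the furthest from 0 among the 10 genes at any irradiation number, and missed the threshold over all genes (edgeR adjusted p 0.804).

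DBP, the PAR-domain factor that drives D-box genes (chromosome 19, 48630030 to 48637438, minus strand), overlapped between the lights at all 3 numbers. It measured 4.24 and 5.67 CPM in blue_3 against 5.07 and 2.88 CPM in dark_3, then 5.75 and 7.16 CPM in blue_14 against 8.02 and 6.52 CPM in dark_14. In blue_42 it measured 4.52 and 7.16 CPM, against 7.04 and 7.80 CPM in dark_42. The log2 differences were 0.31 ± 0.32, -0.16 ± 0.35 and -0.34 ± 0.27 (edgeR adjusted p 0.650 to 0.967), and the interval at 42, -0.91 to 0.23, still held a fall of more than the BHLHE41 rise.

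**Figure D2:**
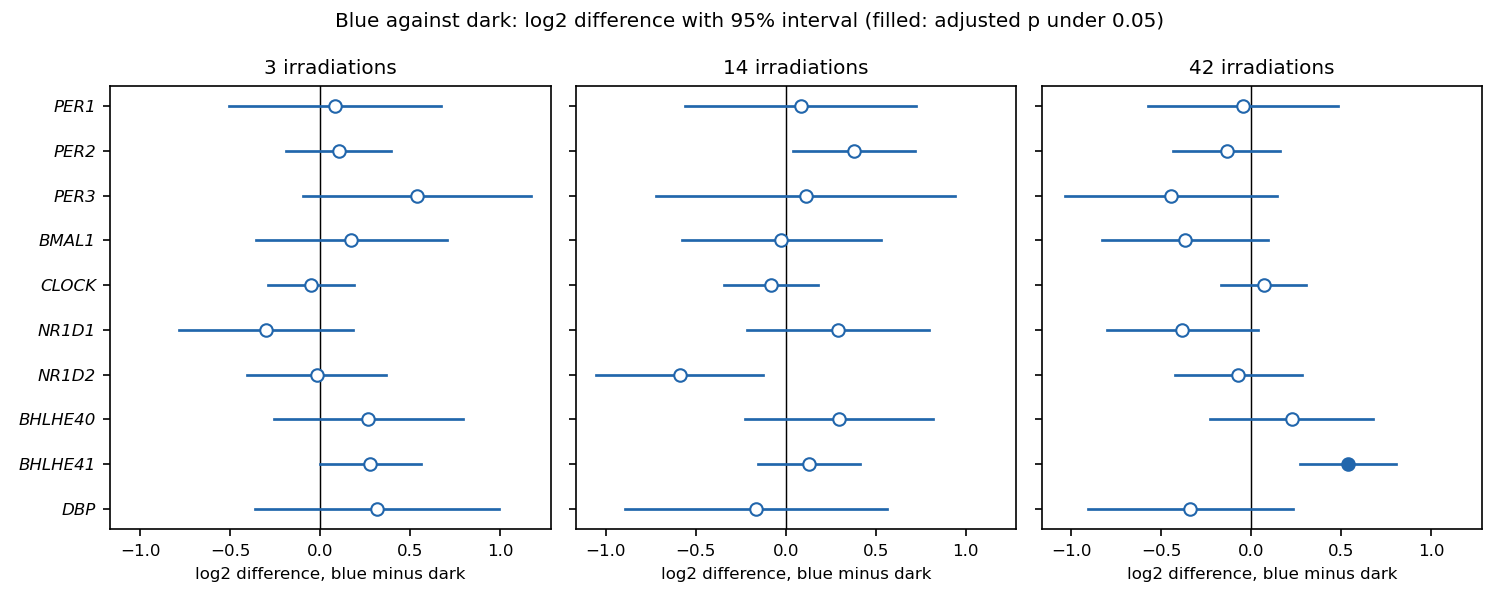
Log2 difference of blue minus dark for each clock gene after 3, 14 and 42 irradiations; points are edgeR estimates from 2 libraries a group, lines their 95% intervals, and filled points mark an adjusted p under 0.05. The single filled point is BHLHE41 at 42, at 0.54, and NR1D2 at 14, at -0.59, is open.

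The second question was how the same genes differed between the dark groups of different irradiation number, which received no blue light. These groups differ in weeks of culture and in passaging, and may differ in the hour and occasion of harvest. The part of each in the differences below was not tested. Of the 10, 3 were called in dark_14 against dark_3 (BMAL1, BHLHE40 and BHLHE41, all higher), where 12.7% of all genes were called. In dark_42 against dark_3 it was 2 (BMAL1 and DBP, both higher), where 17.7% of all genes were called, and in dark_42 against dark_14 it was 1 (BHLHE41, lower), with 7.04%. These 3 comparisons share groups in pairs, so their values are given side by side and not as separate evidence. The median log2 difference of the 10 was 0.45, 0.48 and -0.02, beside 0.02, 0.02 and 0.01 for all genes.

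BHLHE41 rose to 97.4 and 80.7 CPM in dark_14, against 51.1 and 47.2 CPM in dark_3, a log2 difference of 0.85 ± 0.13 (1.80-fold, edgeR adjusted p 0.000615). It was called in each of 20 alternative settings, where it ranged from 0.69 to 0.98. In dark_42 it was lower than in dark_14, at 61.7 and 64.0 CPM, by a log2 difference of -0.49 ± 0.13 (edgeR adjusted p 0.0271). That call was lost without dark_14 a (-0.36, adjusted p 0.270), dark_42 a or dark_42 b (-0.46 and -0.51, adjusted p 0.0961 and 0.0733). Ordered by group mean, BHLHE41 ran dark_3, blue_3, dark_42, dark_14, blue_42 and blue_14, at 49.1, 59.6, 62.9, 89.1, 91.2 and 96.7 CPM, and the last 3 overlapped their neighbours. The blue_42 libraries, called higher than dark_42, thus overlapped those of the unirradiated dark_14 cultures.

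BHLHE40 rose to 20.9 and 15.1 CPM in dark_14, against 10.5 and 8.64 CPM in dark_3, by 0.87 ± 0.25 on the log2 scale (edgeR adjusted p 0.0263). It was not called without dark_3 a, dark_3 b or dark_14 a, where the difference was 1.01, 0.73 and 0.64 and the adjusted p 0.0922, 0.198 and 0.230. For dark_42 against dark_3 it differed by 0.65 ± 0.24 with no overlap (edgeR adjusted p 0.0667). There it was called with no filter on low counts (edgeR adjusted p 0.0225) and with the letters of dark_14 crossed in the replicate block (edgeR adjusted p 0.0473). Without dark_42 a that difference was larger, at 0.88. Groups without overlap were also found for 62.4% of all genes there, and for 62.8% in dark_14 against dark_3. BMAL1 rose to 11.7 and 10.6 CPM in dark_14 and to 8.58 and 12.7 CPM in dark_42, against 6.18 and 6.34 CPM in dark_3. Its differences were 0.82 ± 0.25 (edgeR adjusted p 0.0341) and 0.76 ± 0.24 (edgeR adjusted p 0.0295), and DESeq2 called neither (adjusted p 0.106 and 0.107). With only the compared groups in the fit the call at 42 was also lost (adjusted p 0.0562). Without dark_42 b the difference at 42 was 0.45 (adjusted p 0.362), without dark_3 a or dark_3 b neither BMAL1 call held (adjusted p 0.146 to 0.181), and without dark_14 a or dark_14 b the one at 14 was lost (0.74 and 0.90, adjusted p 0.185 and 0.0881).

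DBP rose to 7.04 and 7.80 CPM in dark_42, against 5.07 and 2.88 CPM in dark_3, by 0.91 ± 0.30 (edgeR adjusted p 0.0399). Dark_3 b, with 20 counts, set much of that difference: without it the value was 0.54 (adjusted p 0.384). Without dark_42 a or dark_42 b the call was also lost (0.98 and 0.83, adjusted p 0.0525 and 0.179), and neither DESeq2 nor the fit on the compared groups alone made it (adjusted p 0.127 and 0.0552). In dark_14 DBP stood 0.84 ± 0.32 above dark_3, just short of the threshold (edgeR adjusted p 0.0853).

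The other 6 genes were not called in the dark series by the reported fit. NR1D1 was 0.60 ± 0.21 higher in dark_42 than in dark_3 (edgeR adjusted p 0.0522), with 12.9 and 16.1 CPM in dark_42 against 8.88 and 10.2 CPM in dark_3. It was called with the replicate block (adjusted p 0.0497), with the letters of dark_14 crossed in that block (0.0399) or without the 14-irradiation libraries (0.0374), and also without dark_14 a, dark_14 b or dark_42 a (0.58 to 0.75, adjusted p 0.0320 to 0.0447). NR1D2 was 0.42 ± 0.18 and 0.40 ± 0.18 higher in dark_14 and dark_42 than in dark_3 (edgeR adjusted p 0.146 and 0.126). Without dark_42 a its difference in dark_42 was larger, at 0.59. PER1 was 0.48 ± 0.28 and 0.36 ± 0.27 higher, while PER2 was at -0.25 ± 0.15 and -0.24 ± 0.14, with both later dark groups below dark_3. PER3 differed by -0.03 ± 0.34 and 0.57 ± 0.30, and CLOCK by -0.13 ± 0.12 and -0.15 ± 0.11.

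Irradiated cultures were compared between the same irradiation numbers, with the same limit on what sets these groups apart. In blue_14 against blue_3, 3 of the 10 were called (NR1D1, BHLHE40 and BHLHE41, all higher), where 6.22% of all genes were called. In blue_42 against blue_3 it was 2, BHLHE41 higher and PER2 lower, with 7.78% of all genes. In blue_42 against blue_14 none was called, with 0.241% of all genes, although PER2 and NR1D2 had an unadjusted edgeR p under 0.05. DESeq2 called none there either. The median log2 difference of the 10 was 0.42, 0.24 and -0.18, against 0.01, -0.00 and 0.00 for all genes.

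NR1D1 rose to 15.2 and 13.8 CPM in blue_14, against 8.34 and 7.12 CPM in blue_3, by 0.91 ± 0.25 (1.88-fold, edgeR adjusted p 0.0348). BHLHE40 rose to 19.5 and 23.9 CPM in blue_14, against 13.6 and 9.07 CPM in blue_3, by 0.89 ± 0.25 (1.86-fold, edgeR adjusted p 0.0432). BHLHE41 rose by 0.70 ± 0.14 in blue_14 (edgeR adjusted p 0.00632) and by 0.61 ± 0.13 in blue_42 (edgeR adjusted p 0.00536), both against blue_3. PER2 fell to 29.6 and 29.3 CPM in blue_42, against 39.5 and 42.4 CPM in blue_3, by a log2 difference of -0.48 ± 0.14 (1.39-fold lower, edgeR adjusted p 0.0437).

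Several of these rested on single libraries. With each library left out in turn NR1D1 ranged from 0.81 to 1.02 and was called in 5 of 12 fits, being lost without dark_3 a, dark_3 b, blue_42 b or any library of blue_3 or blue_14 (adjusted p 0.0505 to 0.207), and with DESeq2 (adjusted p 0.0597). BHLHE40 was called in 6 of 12, lost without dark_3 a, dark_3 b, blue_3 b, blue_14 a, blue_14 b or blue_42 b (0.64 to 1.05, adjusted p 0.0525 to 0.290), and under the replicate block (adjusted p 0.0554). PER2 was called in 6 of 12, lost without either library of dark_3, blue_3 or blue_42 (-0.54 to -0.42, adjusted p 0.0715 to 0.253), with DESeq2 (adjusted p 0.120) and with a filter at 5 CPM (adjusted p 0.0551). BHLHE41 lost its call at 14 without blue_3 b (0.65, adjusted p 0.0786), and at 42 without blue_3 b (0.57, adjusted p 0.0661) or blue_42 b (0.42, adjusted p 0.191).

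**Figure D3:**
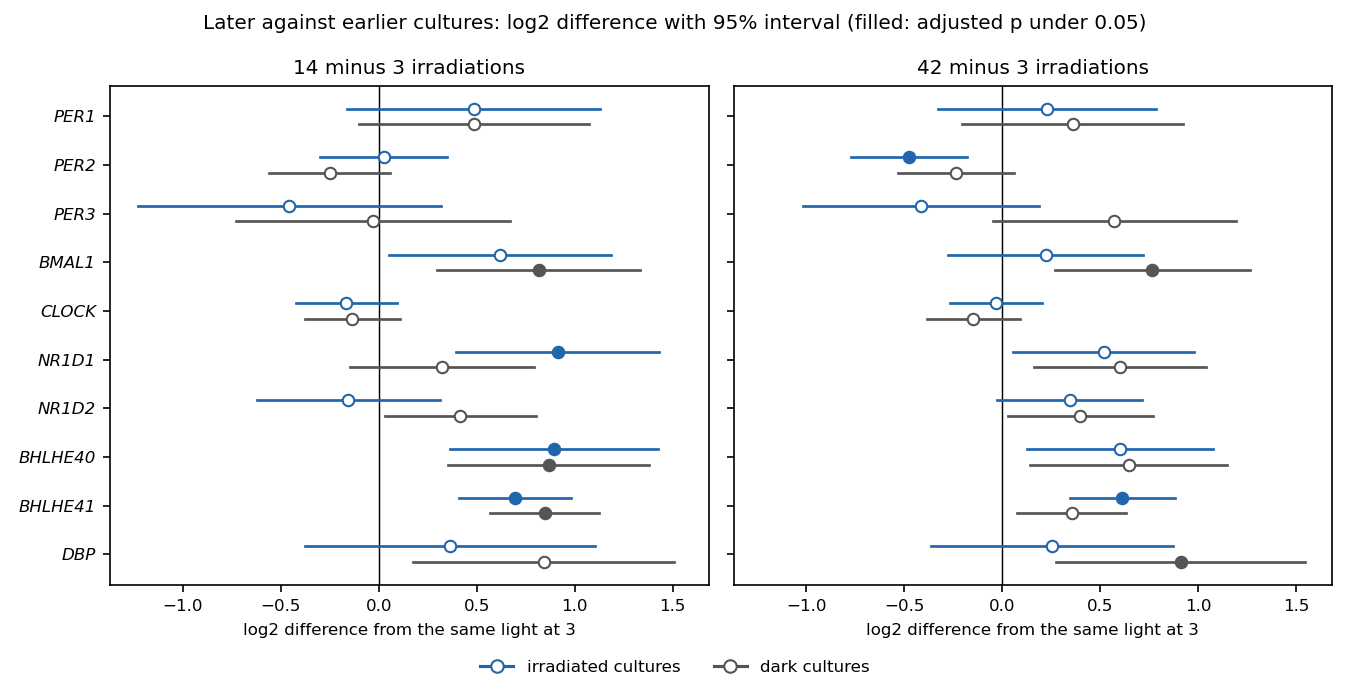
Log2 difference of later against 3 irradiations within the same light, at 14 (left) and 42 (right), for irradiated (blue, upper) and dark (grey, lower) cultures; lines are 95% intervals, filled points have an edgeR adjusted p under 0.05, and all values share the groups at 3. BHLHE41 lay right of 0 in all 4 estimates, from 0.36 to 0.85, and PER2 in irradiated cultures lay at -0.48 at 42.

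Markers of other cell types moved in the same libraries. A list of 17 neuronal transcripts, of which 16 were tested, summed to 256 and 287 CPM in blue_3, against 212 and 214 CPM in dark_3. The sums were 175 and 152 CPM in blue_14 against 234 and 239 CPM in dark_14, and 138 and 121 CPM in blue_42 against 142 and 105 CPM in dark_42. NEFL weighed most in these sums, averaging 94.6 CPM over the 12 libraries. Its group mean was 146 CPM in dark_3 and 76.7 CPM in dark_14, so the sums do not show how most of the list moved. In dark_14 against dark_3, 12 of 16 were called higher, where 12.7% of all genes were called in either direction. In dark_42 against dark_14 11 were lower (7.04% of all genes), and in blue_42 against blue_3 10 were lower (7.78%). In dark_42 against dark_3 the calls were mixed, with 2 higher and 3 lower (17.7% of all genes). For light, 2 of the 16 were called higher after 3 irradiations, where 2 of all 12878 genes (0.0155%) were called. After 14 irradiations none was called, against 0% of all genes. For the change in light effect, 4 were called lower from 3 to 14 (0.0388% of all genes) and 1 from 3 to 42 (0.435%). In blue against dark at 42, where BHLHE41 was called, none of the 16 was called in either direction, against 1.23% of all genes. Of the 9 keratinocyte markers 1, SFN, was called higher there (log2 0.58 ± 0.12, edgeR adjusted p 0.0170). In dark_42 against dark_3 KRT5, KRT14 and SFN were called lower, where 17.7% of all genes were called. Also, 1 of the 9 was called lower in dark_14 against dark_3 (12.7% of all genes) and 1 in dark_42 against dark_14 (7.04%). Against blue_3, 1 was called higher in blue_14 (6.22% of all genes) and 1 in blue_42 (7.78%). Keratinocyte sums were 5526 and 5106 CPM in blue_42 and lowest of all in dark_42, at 4636 and 4059 CPM. Fibroblast markers (9 genes) summed to 4.28 to 15.2 CPM, highest in dark_14, and leukocyte markers (8 genes) to 1.44 to 6.63 CPM, with NKG7 at 0 in all libraries. Of 3 fibroblast markers tested, 3 were called higher in dark_14 against dark_3 (12.7% of all genes). In dark_42 against dark_14 2 were lower (7.04%), and in blue_42 against blue_3 2 were lower (7.78%). Of 2 leukocyte markers tested, 1 was called higher in dark_42 against dark_3 (17.7%). No other comparison had a call in either list. Melanocyte markers (4 genes) summed to at most 1.91 CPM with MLANA and TYR at 0 throughout. The part of these shifts in the clock gene results was not tested.

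Some clock genes share exonic bases with a gene on the opposite strand (GENCODE 29, GRCh38), and the strand setting of the counting is not stated in the sources at hand, so reads from such bases cannot be told apart. BHLHE41 shares 162 bases with SSPN, the sarcospan gene, inside its last exon and 1965 bases from its 3' end. SSPN measured 12.8 and 21.2 CPM in blue_42 against 8.32 and 10.8 CPM in dark_42 (log2 0.84 ± 0.24, edgeR adjusted p 0.104), and 24.9 and 20.1 CPM in dark_14 against 8.72 and 7.06 CPM in dark_3 (log2 1.49 ± 0.26, edgeR adjusted p 0.00141). Like BHLHE41 it was lower in dark_42 than in dark_14, by a log2 difference of -1.20 ± 0.25 (edgeR adjusted p 0.00594), or -1.06 without dark_14 a (adjusted p 0.0551). For light at 42, SSPN was called with no filter on low counts (edgeR adjusted p 0.002697). It was also called with the letters of dark_14 crossed in the replicate block (edgeR adjusted p 0.03004). After 3 irradiations SSPN was higher in blue_3 than in dark_3, by 1.01 ± 0.26 (edgeR adjusted p 0.351). It was called there with no filter (edgeR adjusted p 0.003311). After 14 irradiations its difference was -0.39 ± 0.27 (edgeR adjusted p 0.883). In irradiated cultures BHLHE41 was called higher in blue_14 and in blue_42 than in blue_3, and SSPN was not. Its differences there were 0.08 ± 0.27 and 0.10 ± 0.23 (edgeR adjusted p 0.890 and 0.851). Summed over the 12 libraries SSPN had 1080 counts and BHLHE41 5419. The part of shared reads in either gene was not tested.

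NR1D1 shares 263 bases with THRA, the thyroid hormone receptor alpha gene, 233 bases from its 3' end, and is uncertain for that reason. THRA was 0.56 ± 0.17 higher in dark_14 and 0.62 ± 0.16 higher in dark_42 than in dark_3 (edgeR adjusted p 0.0307 and 0.0107). The first THRA call was lost with DESeq2 (adjusted p 0.0644) and without any library of dark_3 or dark_14 (adjusted p 0.126 to 0.187), and the second without dark_3 a, dark_3 b or dark_42 b (0.33 to 0.65, adjusted p 0.0724 to 0.251). In irradiated cells its difference of 0.42 ± 0.18 in blue_14 against blue_3 was not called (adjusted p 0.163). The overlap of DBP with SPHK2, a sphingosine kinase gene, covers its 3' end over 661 bases, so DBP counts are the most exposed. SPHK2 was not called in any of the 12 comparisons, and in dark_42 against dark_3 its difference was -0.49 ± 0.20, opposite in sign to that of DBP. These are levels of the whole gene, not of the shared bases. The part of shared reads in NR1D1 or DBP was not tested. CLOCK shares 76 bases with TMEM165, 25151 bases from its 3' end, and PER3 shares 868 with UTS2, which had 0 counts. BHLHE40 shares 4 bases with BHLHE40-AS1, which had 28 counts in all. Transcripts overlapping PER1, PER2, PER3 and CLOCK that are named MIR6883, AC129492.3, AC012485.1, Z98884.1 and AC024243.1 were not analysed here.

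**Figure D4:**
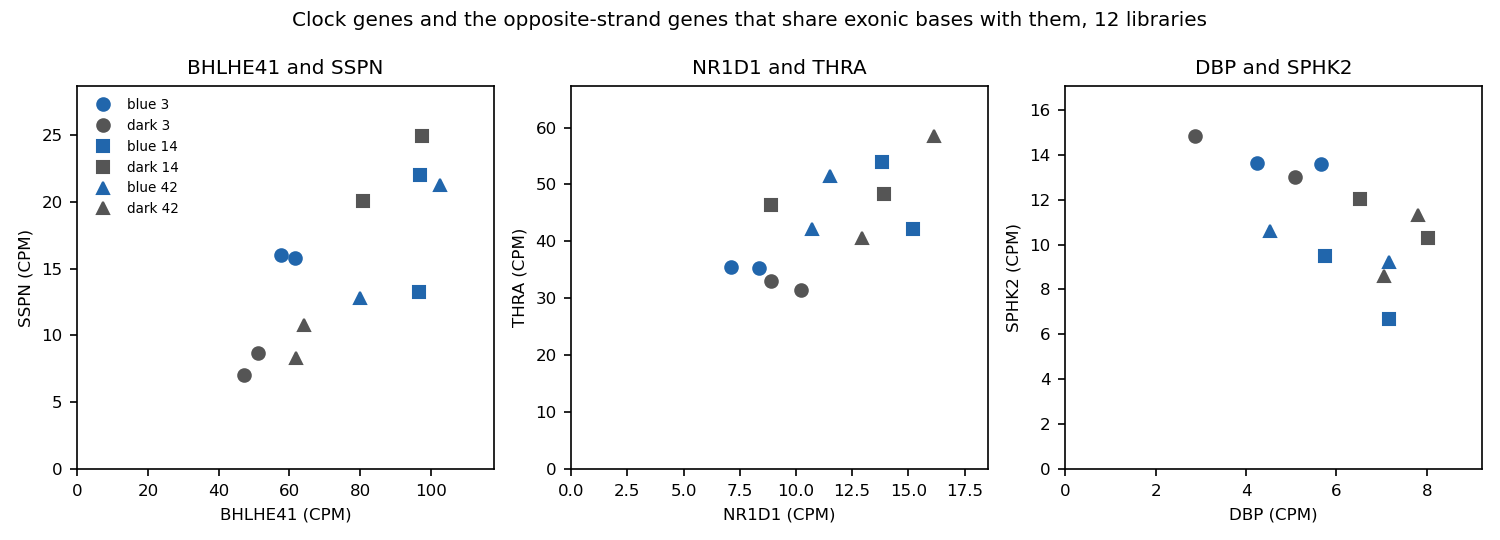
Levels in CPM of BHLHE41, NR1D1 and DBP (horizontal) beside the opposite-strand genes SSPN, THRA and SPHK2 (vertical) in 12 libraries; colour marks light and shape marks irradiation number. SSPN was at 21.2 CPM in the library where BHLHE41 was highest, blue_42 b, and at 7.06 CPM where BHLHE41 was lowest, dark_3 b. SSPN itself was highest in dark_14 a, at 24.9 CPM. It was at 13.2 CPM in blue_14 a, where BHLHE41 was at 96.5 CPM.

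The wider loop was read from 19 other clock genes, of which 15 were tested. None was called for light at any irradiation number or for a change in light effect, with 2, 0 and 0 of 15 at an unadjusted edgeR p under 0.05 after 3, 14 and 42 irradiations. The cryptochromes, repressors that act with PER, were low: CRY1 ranged from 9.74 to 12.9 CPM over the 12 libraries and CRY2 from 2.87 to 9.07 CPM. CRY1 differed between blue and dark by -0.13 ± 0.19, 0.07 ± 0.23 and -0.07 ± 0.18, and CRY2 by -0.16 ± 0.36, 0.20 ± 0.43 and -0.04 ± 0.38. NFIL3, the repressor that opposes DBP at D-boxes, ranged from 13.6 to 19.0 CPM and differed by 0.06 ± 0.18, 0.22 ± 0.20 and -0.07 ± 0.16. TEF, a relative of DBP, measured 9.93 and 10.2 CPM in blue_3 against 6.34 and 6.48 CPM in dark_3 (log2 0.65 ± 0.28, edgeR adjusted p 0.645).

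RORA, an activator of BMAL1, had 19 and 14 counts in blue_3 against 5 and 7 in dark_3 (edgeR adjusted p 0.535). NPAS2, a paralogue of CLOCK, had at most 3 counts in a library, was not tested, and CIART was not tested either. FBXL21P had 0 counts in all libraries. In the culture series, TIMELESS, a replication fork protein with a debated clock role, fell in dark_14 against dark_3, with a log2 difference of -0.45 ± 0.13 (edgeR adjusted p 0.0250) and in blue_14 against blue_3, with one of -0.46 ± 0.14 (edgeR adjusted p 0.0492). Its dark call was lost without dark_3 a, dark_3 b or dark_14 a (-0.51 to -0.33, adjusted p 0.0945 to 0.245). Its call in irradiated cultures was lost with DESeq2, non-robust estimation, the replicate block or only the compared groups (adjusted p 0.0849, 0.0525, 0.0590 and 0.113) and without any library of dark_3, blue_3, blue_14 or blue_42 (adjusted p 0.0555 to 0.208). FBXW11, a ubiquitin ligase subunit that marks PER for decay, rose in dark_42 against dark_3 by 0.43 ± 0.14 (edgeR adjusted p 0.0423), a call lost with DESeq2 (adjusted p 0.147) and without blue_3 a or any library of dark_3, dark_42 or blue_42 (0.37 to 0.49, adjusted p 0.0577 to 0.221). CSNK1E, the kinase that phosphorylates PER, was lower in dark_42 than in dark_14, with a log2 difference of -0.54 ± 0.12 (edgeR adjusted p 0.0103), or -0.44 without dark_14 a (adjusted p 0.137). HLF, the third PAR factor, was called higher in dark_14 than in dark_3 and lower in dark_42 than in dark_14, on 3 and 16 counts in dark_14, 2 and 0 in dark_3 and 0 and 0 in dark_42 (edgeR adjusted p 0.0359 and 0.0101). The first HLF call was lost with DESeq2 (adjusted p 0.138) and without blue_42 a or any library of dark_3 or dark_14 (adjusted p 0.0503 to 0.364), and the second without dark_14 b or dark_42 b (adjusted p 0.164 and 0.0553). In all, 2 of 15 were called in dark_14 against dark_3 (12.7% of all genes), 1 in dark_42 against dark_3 (17.7%) and 2 in dark_42 against dark_14 (7.04%). Among irradiated cultures it was 1 of 15 in blue_14 against blue_3 (6.22% of all genes), 0 in blue_42 against blue_3 (7.78%) and 0 in blue_42 against blue_14 (0.241%).

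Downstream, none of 9 clock output genes was called for light at any irradiation number or for a change in light effect. ALAS1, the first enzyme of haem synthesis, rose in dark_42 against dark_3 by 0.65 ± 0.16 (edgeR adjusted p 0.00674) and in blue_42 against blue_3 by 0.61 ± 0.16 (edgeR adjusted p 0.0219). The first ALAS1 call was lost without dark_3 b or dark_42 b (0.53 and 0.54, adjusted p 0.120 and 0.0820), and the second with DESeq2 (adjusted p 0.0719) and without any library of blue_3 or blue_42 (0.51 to 0.69, adjusted p 0.0663 to 0.195). KLF9, a clock-controlled and glucocorticoid-induced repressor of keratinocyte proliferation, was called higher in dark_14 and dark_42 than in dark_3 on 7 and 13 counts, and 7 and 11 counts, against 1 and 1 (edgeR adjusted p 0.0174 and 0.0420). The KLF9 call at 14 was lost with DESeq2 (adjusted p 0.0594) and without any library of dark_3 or dark_14 (adjusted p 0.0558 to 0.133), and that at 42 without dark_42 b or any library of dark_3, blue_3 or dark_14 (adjusted p 0.0518 to 0.229). The counts were 2 of 9 called in dark_14 against dark_3 (12.7% of all genes), 3 in dark_42 against dark_3 (17.7%) and 0 in dark_42 against dark_14 (7.04%). They were 1 of 9 in blue_14 against blue_3 (6.22% of all genes), 1 in blue_42 against blue_3 (7.78%) and 0 in blue_42 against blue_14 (0.241%).

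Of the members averaging at least 10 CPM, BHLHE40 had the widest range of group means, 1.16 on the log2 scale, and the 5 genes closest to it in pattern over the 12 libraries were sought among 8688 genes. Likeness was the root mean square difference of centred log2 CPM, whose median over these genes was 0.493. The nearest were HLA-B at 0.117, HLA-F at 0.131, PNRC1 at 0.132, NFKBIA at 0.132 and GRB7 at 0.150. HLA-B and HLA-F encode class I antigen-presenting molecules and NFKBIA the inhibitor of NF-kappaB. HLA-B averaged 466 CPM in blue_14 and 373 CPM in dark_14, 370 CPM in blue_42 and 341 CPM in dark_42, and 233 CPM in blue_3 and 212 CPM in dark_3, the same order of groups as for BHLHE40. HLA-B was picked for its likeness in these same libraries, so a like order is no separate result. For BHLHE40 every group overlapped the next in that order.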

How the data were processed

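RNA from 12 HaCaT libraries was sequenced with a 3' tag chemistry (QuantSeq FWD). The authors deposited unnormalized whole-number counts for each gene; per the submitters' processing notes, STAR, featureCounts and GRCh38 were used. Versions, annotation release, strand setting and use of molecular identifiers are not stated in the sources at hand. Nothing states that letters a and b mark independent cultures, so a p-value reflects library-to-library spread that may be technical. The 2 libraries of each group differed by more than counting noise (chi-square per degree of freedom of at least 1.61).

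Genes passing filterByExpr (minimum count 10) were scaled by TMM and fitted with edgeR 4.0.16 (R 4.3.3, robust quasi-likelihood, 6 group means, 6 residual degrees of freedom), two-sided, with Benjamini-Hochberg adjustment over 12878 genes in each of 12 comparisons. The common biological coefficient of variation was 9.41%. The procedure was tested on simulated data for blue against dark at 42, with 200 of 12621 genes changed. It recovered 63% of 1.5-fold and 96% of 2-fold changes, and 16 false calls were recorded. Alternatives were DESeq2 1.42.0, RLE scaling, no filter or one at 5 CPM, non-robust estimation, the letter as a replicate block, only the compared groups, and each library left out. Positions came from GENCODE 29 and promoters from RefSeq. All 10 members were named whatever their values, with every called gene of the other clock and output lists and 7 of them regardless, overlapping genes, and the 5 genes most like the most variable member. A few listed genes are not reported here by name, while counts include them. Members and lists were chosen with earlier results of these data known. Letters were not used as pairs, since same-letter deviations did not all correlate above 0.1.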

Additional observations from a re-analysis of the deposited data

Results flagged for a closer look

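PER2 and PER3 differed between the lights in opposite directions at different irradiation numbers, with no overlap between libraries on either side. PER2 was higher in irradiated cells after 3 and 14 irradiations, by log2 differences of 0.10 and 0.38, and lower after 42, at -0.14. The change in its light effect was not called by edgeR, at -0.24 from 3 to 42 (adjusted p 0.720) and -0.52 from 14 to 42 (adjusted p 0.554). PER3 was higher by 0.54 after 3 irradiations and at -0.44 after 42, and its change of -0.98 was not called either (edgeR adjusted p 0.370). With 2 libraries a group, 42.2% of all genes had non-overlapping groups between the lights at 42, 33.2% at 14 and 43.6% at 3.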

How the results depend on the processing

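All 12 calls of a clock gene kept their sign in every alternative run, but 1 of the 12, BHLHE41 in dark_14 against dark_3, was called in all of them. Of 120 differences (10 genes in 12 comparisons), 80 kept their sign in every alternative, and none that was called reversed. The light effect at 42 had 1 gene called and 0 with non-robust estimation, the replicate block or only the compared groups. In dark_42 against dark_3 the count was 2, and 0 with DESeq2 and 1 with only the compared groups, where the 1 is BHLHE41 and both BMAL1 and DBP were lost; in dark_42 against dark_14 it was 1, and 0 with only the compared groups. In blue_42 against blue_3 it was 2, and 1 with DESeq2 or a filter at 5 CPM. Leaving out 1 library at a time gave 0 to 1 for the light effect at 42, 1 to 3 in dark_14 against dark_3, 0 to 4 in dark_42 against dark_3, 0 to 1 in dark_42 against dark_14, 0 to 3 in blue_14 against blue_3, 0 to 2 in blue_42 against blue_3 and 0 to 1 in blue_42 against blue_14. A lone library was then assumed to vary like the other groups. RLE scaling and no filter moved none of these counts by more than 1.5 times, and the causes were not tested.

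Same-letter libraries correlated between -0.252 and 0.296 in their deviations from group means. Blue_14, dark_42 and blue_42 correlated with each other at 0.144 to 0.296 and dark_14 with these at -0.252 to -0.137, while pairs with a group at 3 irradiations lay between -0.0802 and 0.0690. Not every pair was over 0.1, so the letters were not taken as a pairing, and whether they mark one was not settled. The replicate block left the other 11 counts of clock genes within 1.5 times, with 3 in dark_42 against dark_3. Because dark_14 and blue_14 correlated at -0.137, a replicate block with the letters of dark_14 crossed was added after seeing the data, as was a fit without the 14-irradiation libraries; in dark_42 against dark_3 the first gave 5 and the second 3, and neither changed another count of clock genes. Over all genes at 42, 158 were called, 24 to 235 without 1 library, 420 with no filter, 100 with only the compared groups, 355 with the crossed block and 246 without the 14-irradiation libraries. Depth limits PER3, DBP and BMAL1 most, at 8, 15 and 20 counts in blue_14 b.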
